A study of Mus musculus with 20 samples.

Results

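The enzymes that carry squalene to cholesterol were followed in mouse livers with and without Mcl1, after a fast and with food. Squalene is made from farnesyl diphosphate, the product of the mevalonate arm, and is then oxidised and folded into the 4-ring sterol skeleton, trimmed of surplus methyl groups and rearranged to cholesterol. 9 genes of these steps were chosen by symbol: Fdft1, Sqle, Lss, Cyp51, Msmo1, Nsdhl, Hsd17b7, Sc5d and Dhcr7. All 9 were measured, each by 1 probe set, among 19505 genes with a symbol on the array. Their choice used no measured value of these livers, but it was made with earlier results of these data known.

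The 20 livers came from 4 groups of 5 mice. Fasted Mcl1KO mice and fasted WT mice had been without food for 48 h, singly housed on wire floors, while fed Mcl1KO mice and fed WT mice ate freely; all had water. Mcl1KO stands for the deposited genotype Mcl1(L-/-), in which a floxed Mcl1 gene, encoding an anti-apoptotic protein of the BCL2 family, was removed from the liver by an adeno-associated virus that expresses Cre from the liver promoter LP1. The same protocol text stands on the WT samples, so the labels do not settle whether WT mice carried the floxed allele or received a virus, and they name no age, sex or strain. A response to virus or Cre and one to loss of Mcl1 cannot be told apart. Each liver was read on 1 Affymetrix array.

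In the liver, cholesterol synthesis is governed mainly by transcription. When sterols are scarce in the endoplasmic reticulum, SCAP escorts the transcription factor encoded by Srebf2 to the Golgi, where it is cut and released to switch on genes of the whole pathway, and when sterols are plentiful the INSIG proteins hold SCAP back. The factor binds sterol regulatory elements and acts together with general factors such as NF-Y, which binds CCAAT boxes, and SP1, which binds GC boxes. A long fast is known to lower hepatic sterol and fatty acid synthesis.

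Promoter windows from 250 bases before to 50 bases after the annotated start were available from RefSeq (build GRCm38.p6) for 7 of the 9 genes, all but Fdft1 and Sqle. A window of Nsdhl, Cyp51, Msmo1 and Hsd17b7 is shown. These 4 genes all act in sterol demethylation and yet span the largest fall and the smallest change among the genes with a window. The sequences run 5′ to 3′ on the gene's strand, and capitals mark CCAAT or its reverse complement. They lie at chrX:72918271-72918570 on the plus strand for Nsdhl, and on the minus strand at chr5:4104648-4104947 for Cyp51, chr8:64733529-64733828 for Msmo1 and chr1:169969156-169969455 for Hsd17b7.
Nsdhl: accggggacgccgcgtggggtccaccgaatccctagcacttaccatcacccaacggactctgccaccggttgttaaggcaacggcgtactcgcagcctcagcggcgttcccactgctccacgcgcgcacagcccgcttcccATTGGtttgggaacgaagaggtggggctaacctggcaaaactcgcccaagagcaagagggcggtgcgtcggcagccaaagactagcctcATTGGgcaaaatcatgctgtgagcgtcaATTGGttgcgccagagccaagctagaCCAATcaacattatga
Cyp51: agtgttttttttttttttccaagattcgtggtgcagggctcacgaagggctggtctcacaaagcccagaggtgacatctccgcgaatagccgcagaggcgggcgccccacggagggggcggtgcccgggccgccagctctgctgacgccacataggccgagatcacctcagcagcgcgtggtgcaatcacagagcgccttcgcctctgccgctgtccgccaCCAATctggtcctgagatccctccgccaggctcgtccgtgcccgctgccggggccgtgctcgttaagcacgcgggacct
Msmo1: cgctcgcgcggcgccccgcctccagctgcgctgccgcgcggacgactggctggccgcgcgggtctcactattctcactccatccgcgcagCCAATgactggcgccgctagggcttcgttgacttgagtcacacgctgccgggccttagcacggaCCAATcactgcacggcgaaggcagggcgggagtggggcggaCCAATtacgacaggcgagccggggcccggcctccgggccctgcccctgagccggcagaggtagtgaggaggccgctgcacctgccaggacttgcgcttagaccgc
Hsd17b7: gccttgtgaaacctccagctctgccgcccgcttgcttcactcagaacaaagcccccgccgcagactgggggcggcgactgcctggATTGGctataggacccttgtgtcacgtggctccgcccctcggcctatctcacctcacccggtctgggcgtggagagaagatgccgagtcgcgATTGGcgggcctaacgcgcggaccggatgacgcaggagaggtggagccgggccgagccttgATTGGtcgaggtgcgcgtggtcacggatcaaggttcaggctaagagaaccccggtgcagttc

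Both strands of the windows were searched for short motifs. CCAAT was found in at least 1 window of all 7 genes and in 7 of their 9 windows, against 37.4% of the 32851 windows in the table. Nsdhl held 4 copies, Msmo1 and Hsd17b7 held 3 each, and Lss, Cyp51 and Sc5d held 1 each, while 1 of the 3 windows of Dhcr7 held 2. The GC box GGGCGG was also found in all 7 genes and in 8 of their 9 windows, against 35.7% of all windows. The E-box CACGTG was found in Hsd17b7, Sc5d and Dhcr7 (3 of the 9 windows), against 7.15% of all windows. TCACNCC, the core of the sterol regulatory element, was found in Msmo1 alone of the 7 (1 of the 9 windows), against 15.6% of all windows. A longer form of that element, which contains the core, was found in none, against 0.234% of all windows. A missing match says only that these letters are not in these windows. None of the other motifs contains another. Hsd17b7, whose level changed little, shared the CCAAT and GC boxes with the 6 genes that fell.

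Mcl1 itself had a log2 signal of 5.83 to 6.50 in the 10 Mcl1KO livers and of 7.16 to 7.60 in the 10 WT livers, without overlap, and the position of its probes relative to the deleted part is not known here. Arrays of a group correlated at 0.979 to 0.990 across probe sets. Markers of hepatocytes were high in all groups, with array means of 11.2 to 11.4 over 12 markers, and those of lymphocytes and cholangiocytes were near the bottom of the scale, with array means of 2.41 to 2.76 and 2.72 to 3.16. Some livers stood apart in the sterol enzymes. Fed WT replicate 2 was the lowest of its group for all 9 genes, fasted WT replicate 4 the lowest for 8 and fasted Mcl1KO replicate 3 the highest for 6, while the same arrays were extreme in that direction for 18.5% to 23.2% of all probe sets. For the 9 enzymes, calls that these livers changed are given with and without them.

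**Figure D1:**
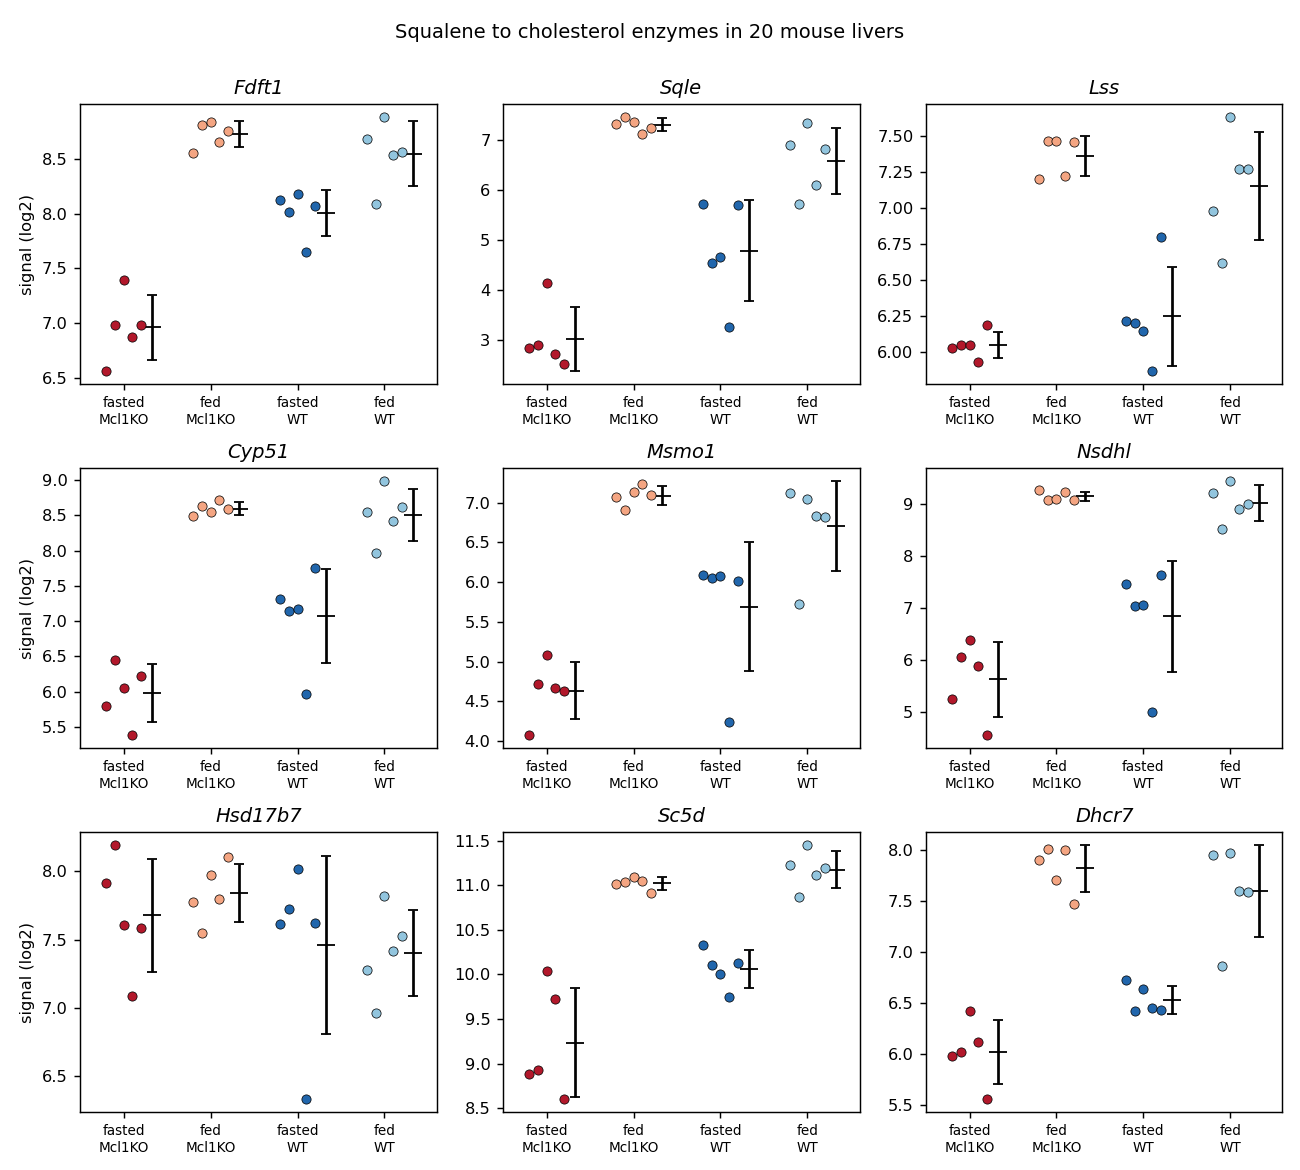
Log2 signal of each of the 9 enzymes (1 panel each, vertical axis) in the 4 groups (horizontal axis), with points for single livers and a bar with error for the group mean and SD, n = 5. Sqle stands between 2.51 and 4.14 in fasted Mcl1KO livers, against 7.12 to 7.46 in fed Mcl1KO livers, while the groups overlap for Hsd17b7.

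In Mcl1KO livers the pathway fell at nearly every measured step after the fast. 8 of the 9 enzymes fell, by 2.48-fold to 11.4-fold for 7 of them and by more for Sqle, and all 8 were lower in each fasted liver than in any fed one; Hsd17b7 was not called. Among all 22206 probe sets, 14.4% were called in this comparison and 6.25% were called lower, and 4.37% had fasted livers all below the fed ones. The median difference of the 9 genes was a log2 value of -1.80, against -0.0015 over all probe sets. Tests are limma's on the log2 signals with Benjamini-Hochberg adjustment over all probe sets, a gene is called at an adjusted p under 0.05, and n = 5 livers in each group.

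The measured fall was largest at squalene epoxidation. Sqle, whose product oxidises squalene and is a rate-limiting enzyme of the pathway, had log2 signals of 2.83, 2.89, 4.14, 2.71 and 2.51 in fasted Mcl1KO livers, against 7.32, 7.46, 7.37, 7.12 and 7.24 in fed Mcl1KO livers. Replicate 3 stood well above the other fasted livers and still far below every fed one. The difference was -4.29 (SE 0.37, 19.5-fold, adjusted p = 1.91e-08). The 4 other fasted livers, at 2.51 to 2.89, lay below every array's median of 3.35 to 3.47 and near the level of the lymphocyte markers, so whether Sqle was above background there is not known, and the size of its differences with fasted Mcl1KO livers is uncertain. Fdft1, which encodes squalene synthase and opens the branch to sterols, read 6.57, 6.99, 7.39, 6.88 and 6.99 in fasted Mcl1KO livers, against 8.55, 8.81, 8.84, 8.65 and 8.75 in fed Mcl1KO livers. All fasted livers lay more than 1 log2 unit below the fed ones, a fall of 3.38-fold (log2 -1.76, SE 0.15, adjusted p = 1.12e-08). Lss, the cyclase that folds oxidised squalene into lanosterol, read 6.03, 6.05, 6.05, 5.94 and 6.19 in fasted Mcl1KO livers, against 7.20, 7.46, 7.46, 7.22 and 7.46 in fed Mcl1KO livers. Both groups were tight and apart, and Lss fell 2.48-fold (log2 -1.31, SE 0.16, adjusted p = 2.53e-06).

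The enzymes that strip methyl groups from lanosterol did not move alike. Cyp51, the cytochrome P450 that starts the trimming, read 5.79, 6.45, 6.05, 5.39 and 6.23 in fasted Mcl1KO livers, against 8.49, 8.63, 8.55, 8.72 and 8.59 in fed Mcl1KO livers. Every fasted liver was about 2 log2 units or more below the fed ones, and Cyp51 fell 6.13-fold (log2 -2.62, SE 0.24, adjusted p = 4.65e-08). Msmo1, the oxidase of the next methyl groups, read 4.08, 4.72, 5.09, 4.67 and 4.63 in fasted Mcl1KO livers, against 7.08, 6.91, 7.13, 7.23 and 7.10 in fed Mcl1KO livers. Replicate 1 was lowest and replicate 3 highest among the fasted livers, and the fall was 5.47-fold (log2 -2.45, SE 0.29, adjusted p = 1.70e-06). Nsdhl, the dehydrogenase that acts after Msmo1, read 5.25, 6.05, 6.38, 5.88 and 4.55 in fasted Mcl1KO livers, against 9.25, 9.07, 9.09, 9.22 and 9.07 in fed Mcl1KO livers. Fasted livers were spread over nearly 2 log2 units, fed livers over a small fraction of 1, and Nsdhl fell 11.4-fold (log2 -3.52, SE 0.36, adjusted p = 2.14e-07), the 12th lowest difference of all probe sets. Hsd17b7, the ketoreductase that completes this round, is also known for reducing estrone. It read 7.91, 8.19, 7.61, 7.09 and 7.58 in fasted Mcl1KO livers, against 7.77, 7.55, 7.97, 7.80 and 8.10 in fed Mcl1KO livers. The highest and the lowest of these 10 livers were both fasted, and the groups overlapped (log2 -0.16, 95% interval -0.66 to 0.33, adjusted p = 0.771).

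Both late enzymes fell by similar amounts. Sc5d, the desaturase that introduces a ring double bond, read 8.88, 8.92, 10.04, 9.72 and 8.60 in fasted Mcl1KO livers, against 11.01, 11.03, 11.10, 11.05 and 10.91 in fed Mcl1KO livers. Replicates 3 and 4 lay apart from the other fasted livers, below all fed ones, and the fall was 3.45-fold (log2 -1.79, SE 0.19, adjusted p = 6.06e-07). Dhcr7, the reductase that turns dehydrocholesterol into cholesterol, read 5.98, 6.02, 6.42, 6.12 and 5.56 in fasted Mcl1KO livers, against 7.90, 8.01, 7.70, 7.99 and 7.47 in fed Mcl1KO livers. No fasted liver reached a fed one, and Dhcr7 fell 3.48-fold (log2 -1.80, SE 0.18, adjusted p = 1.13e-07). These calls held in each of 29 alternative fits for all 8 genes. Because the samples are whole livers, fewer cells of a type and less RNA per cell cannot be told apart.

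In WT livers the same 8 genes fell with fasting, by 1.45-fold to 4.52-fold, and Hsd17b7 was again not called. Of all probe sets 6.79% were called in this comparison and 3.68% were called lower. Fasted livers were all below fed livers for 5 of the 9 genes (Sqle, Cyp51, Nsdhl, Sc5d and Dhcr7), against 3.81% of all probe sets. The median difference was -1.06 for the 9 genes and 0.015 over all probe sets.

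At the start of the branch, Fdft1 read 8.12, 8.01, 8.18, 7.65 and 8.07 in fasted WT livers, against 8.68, 8.08, 8.88, 8.53 and 8.56 in fed WT livers. Fed replicate 2 lay within the range of the fasted livers, and the fall of 1.45-fold (log2 -0.54, SE 0.15, adjusted p = 0.0246) was the smallest among the 8 called genes. It was no longer called without fed WT replicate 1, 3 or 5 or without fasted WT replicate 4 (adjusted p = 0.0506 to 0.0829). Sqle read 5.72, 4.55, 4.66, 3.26 and 5.69 in fasted WT livers, against 6.91, 5.72, 7.35, 6.10 and 6.81 in fed WT livers. Fasted WT replicate 4 was the lowest by more than 1 log2 unit, and the highest fasted liver all but touched the lowest fed one. Sqle fell 3.48-fold (log2 -1.80, SE 0.37, adjusted p = 0.00272). Lss read 6.22, 6.21, 6.15, 5.87 and 6.80 in fasted WT livers, against 6.98, 6.62, 7.63, 7.27 and 7.27 in fed WT livers. Fasted replicate 5 exceeded fed replicate 2, and Lss fell 1.87-fold (log2 -0.90, SE 0.16, adjusted p = 0.00056).

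Among the demethylation enzymes, Cyp51 read 7.32, 7.14, 7.17, 5.97 and 7.76 in fasted WT livers, against 8.55, 7.96, 8.99, 8.42 and 8.61 in fed WT livers. Fasted replicate 4 was again the lowest, and the fall was 2.70-fold (log2 -1.43, SE 0.24, adjusted p = 0.000342). Msmo1 read 6.08, 6.05, 6.07, 4.24 and 6.01 in fasted WT livers, against 7.12, 5.73, 7.05, 6.83 and 6.82 in fed WT livers. In each group 1 liver lay more than 1 log2 unit below the other 4, which were close together, and with both in place the fall was 2.02-fold (log2 -1.02, SE 0.29, adjusted p = 0.0322). Without fasted WT replicate 4 the difference of Msmo1 was -0.65 and was not called (adjusted p = 0.0726), nor was it without fed WT replicate 1, 3, 4 or 5 (adjusted p = 0.0700 to 0.0863), under trended robust moderation (adjusted p = 0.0762) or in the fit on only the 2 WT groups (adjusted p = 0.0846). Nsdhl read 7.45, 7.03, 7.05, 5.0 and 7.63 in fasted WT livers, against 9.21, 8.52, 9.43, 8.89 and 9.0 in fed WT livers. Here too fasted replicate 4 stood far below, and Nsdhl fell 4.52-fold (log2 -2.18, SE 0.36, adjusted p = 0.000281), the 28th lowest difference of all probe sets. Hsd17b7 read 7.62, 7.72, 8.02, 6.33 and 7.62 in fasted WT livers, against 7.27, 6.96, 7.82, 7.42 and 7.53 in fed WT livers. The 4 other fasted livers lay at the upper end of the fed range or above it, and replicate 4 lay below all fed livers (log2 0.06, 95% interval -0.43 to 0.55, adjusted p = 0.946).

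For the late steps, Sc5d read 10.33, 10.11, 10.002, 9.75 and 10.13 in fasted WT livers, against 11.23, 10.87, 11.45, 11.12 and 11.19 in fed WT livers, a fall of 2.16-fold (log2 -1.11, SE 0.19, adjusted p = 0.000584). Dhcr7 read 6.72, 6.42, 6.63, 6.45 and 6.43 in fasted WT livers, against 7.95, 6.86, 7.97, 7.59 and 7.59 in fed WT livers, a fall of 2.09-fold (log2 -1.06, SE 0.18, adjusted p = 0.000298). For both genes the groups did not overlap, and for Dhcr7 fasted replicate 4 sat among the other fasted livers. Without fed WT replicate 2 and fasted WT replicate 4 together, a fit added after these livers had been seen to stand apart, all 8 genes were still called lower.

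**Figure D2:**
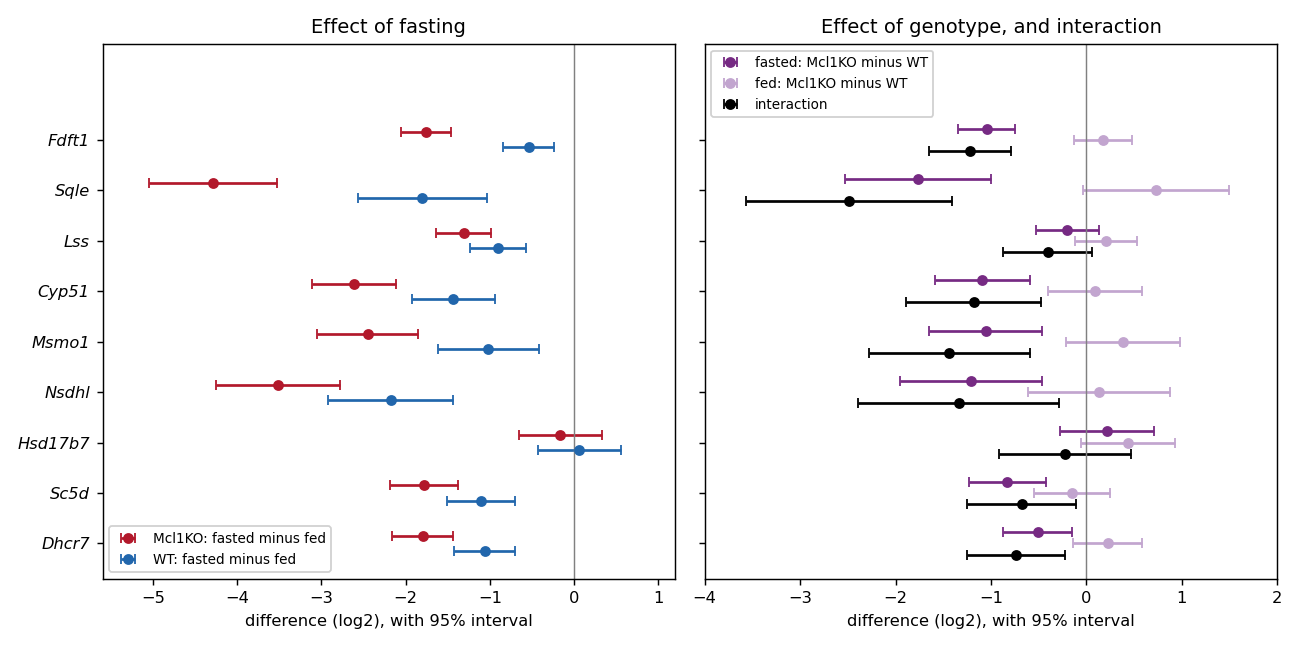
Differences in log2 signal (horizontal axes) for the 9 enzymes (rows), as limma estimates with 95% intervals, n = 5 livers in each group. The left panel shows fasted minus fed in Mcl1KO and in WT, and the right panel Mcl1KO minus WT in fasted and in fed livers together with the interaction; the fed differences all have intervals that reach 0.

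Between fasted livers, 5 of the 9 enzymes (Fdft1, Sqle, Cyp51, Msmo1 and Sc5d) were lower in Mcl1KO than in WT and none was called higher, against 4.99% of all probe sets called in this comparison and 1.67% called lower. The median difference was -1.05 for the 9 genes and -0.017 over all probe sets. Only for Fdft1 was every fasted Mcl1KO liver (6.57 to 7.39) below every fasted WT liver (7.65 to 8.18), a pattern held by 1.36% of all probe sets. These comparisons share the fasted Mcl1KO livers with the fasting comparison above and are not independent of it.

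Fdft1 was 2.06-fold lower in fasted Mcl1KO livers, which averaged 6.96 ± 0.30, than in fasted WT livers, which averaged 8.01 ± 0.21 (SD; log2 -1.05, SE 0.15, adjusted p = 0.000312). Sqle averaged 3.02 ± 0.65 in fasted Mcl1KO livers and 4.78 ± 1.01 in fasted WT livers, and was called lower (log2 -1.76, SE 0.37, adjusted p = 0.00734), a size that rests on the same dim signals. The 2 ranges met, because fasted Mcl1KO replicate 3 at 4.14 lay above fasted WT replicate 4 at 3.26. Lss averaged 6.05 ± 0.09 in fasted Mcl1KO livers and 6.25 ± 0.34 in fasted WT livers, and was not called (log2 -0.20, 95% interval -0.53 to 0.13, adjusted p = 0.567).

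In the demethylation steps Cyp51 averaged 5.98 ± 0.41 in fasted Mcl1KO livers and 7.07 ± 0.66 in fasted WT livers, 2.13-fold lower (log2 -1.09, SE 0.24, adjusted p = 0.0104), a call lost in the fit on only these 2 groups (adjusted p = 0.0594). Msmo1 averaged 4.64 ± 0.36 in fasted Mcl1KO livers and 5.69 ± 0.81 in fasted WT livers, 2.08-fold lower (log2 -1.06, SE 0.29, adjusted p = 0.0341). The call of Msmo1 was fragile: it was lost when any 1 of 8 fasted livers was left out, the exceptions being fasted WT replicate 4 and fasted Mcl1KO replicate 3 (adjusted p up to 0.0982). Nsdhl averaged 5.62 ± 0.72 in fasted Mcl1KO livers and 6.83 ± 1.06 in fasted WT livers and narrowly missed the threshold (log2 -1.21, SE 0.36, adjusted p = 0.0521). Without fasted WT replicate 4 its difference was -1.67 and was called (adjusted p = 0.00106), as it was without fasted Mcl1KO replicate 3 (log2 -1.40, adjusted p = 0.0206). Leaving out the lowest WT or the highest Mcl1KO liver widens this difference by construction. Over the 29 alternative fits the adjusted p of Nsdhl reached 0.178. Hsd17b7 averaged 7.68 ± 0.41 in fasted Mcl1KO livers and 7.46 ± 0.65 in fasted WT livers (log2 0.21, 95% interval -0.28 to 0.71, adjusted p = 0.714).

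Sc5d averaged 9.23 ± 0.61 in fasted Mcl1KO livers and 10.06 ± 0.21 in fasted WT livers and was 1.78-fold lower (log2 -0.83, SE 0.19, adjusted p = 0.0161). Replicate 3 of the Mcl1KO group lay within the WT range and replicate 4 just below it, and the call was lost without fasted Mcl1KO replicate 1, 2 or 5 (adjusted p = 0.0502, 0.0552 and 0.0513). Dhcr7 averaged 6.02 ± 0.31 in fasted Mcl1KO livers and 6.53 ± 0.14 in fasted WT livers, a difference of -0.51 that was not called (SE 0.18, adjusted p = 0.0994). It was called without fed WT replicate 2 (adjusted p = 0.0396) or fasted Mcl1KO replicate 3 (adjusted p = 0.0377), the highest of its group. Over the 29 alternative fits the adjusted p of Dhcr7 reached 0.248. Leaving out 1 liver at a time gave 3 to 7 called genes. The count was 3 without fasted Mcl1KO replicate 1, 2 or 5 and 7 without replicate 3. Kupffer cell markers, which mark the liver's own macrophages, also differed between these groups. Their array means over 9 markers ran from 4.99 to 5.65 in fasted Mcl1KO livers and from 4.54 to 4.86 in fasted WT livers. In Mcl1KO 3 of the 9 markers were called higher, where 4.99% of all probe sets were called in either direction. Among 8 stellate cell markers 1, Dcn, was called, higher in Mcl1KO (log2 0.76, SE 0.13, adjusted p = 0.00174), and 7 were not called. The median difference of the 8 was 0.16, with 5 above 0 and 3 below. None of 7 sinusoidal endothelial markers was called. The part of these cells in the result was not tested.

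In fed livers none of the 9 enzymes was called between the genotypes by limma, and none had an unadjusted p under 0.05; of all probe sets 0.036% were called. The median difference was 0.21 and 8 of the 9 genes were above 0, all but Sc5d (log2 -0.15, SE 0.19, adjusted p = 0.964). Sqle had the widest difference, with a mean of 7.30 ± 0.13 in fed Mcl1KO livers and 6.58 ± 0.65 in fed WT livers (log2 0.73, 95% interval -0.04 to 1.49, adjusted p = 0.808). Hsd17b7 followed with 7.84 ± 0.21 in fed Mcl1KO livers and 7.40 ± 0.32 in fed WT livers (log2 0.44, 95% interval -0.05 to 0.93, adjusted p = 0.845). The intervals leave room for a difference of either small size or, for Sqle, of more than 1 log2 unit.

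The interaction asks whether fasting lowered the enzymes more in Mcl1KO than in WT livers, and it was below 0 for all 9 genes, with a median of -1.18 against -0.010 over all probe sets. 1 of the 9, Fdft1, was called, where 0.135% of all probe sets were called and 0.054% called lower. For Fdft1 the fasting differences of -1.76 in Mcl1KO and -0.54 in WT livers differed by -1.22 (SE 0.21, adjusted p = 0.0163). Sqle had an interaction of -2.49 (SE 0.52, 95% interval -3.57 to -1.41), which takes in its dim signals in fasted Mcl1KO livers, and missed the threshold at an adjusted p of 0.0502. It was called without fed WT replicate 3 (adjusted p = 0.0480), fasted WT replicate 4 (adjusted p = 0.00735) or fasted Mcl1KO replicate 3 (adjusted p = 0.00636). Leaving out a high fed WT, a low fasted WT or a high fasted Mcl1KO liver makes an interaction more negative by construction. Over the 28 alternative fits the adjusted p of Sqle reached 0.111.

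Msmo1, Nsdhl and Cyp51 had interactions of -1.44 (SE 0.41), -1.34 (SE 0.51) and -1.18 (SE 0.34), with adjusted p of 0.141, 0.290 and 0.147. Without fasted WT replicate 4, the WT liver with the lowest mean over the 9 enzymes, all 3 were called, with -1.80 for Msmo1 (adjusted p = 0.00955), -1.80 for Nsdhl (adjusted p = 0.0378) and -1.46 for Cyp51 (adjusted p = 0.0236). The count was then 5 of the 9 genes. Leaving out any other single liver gave 1 or 2. Because the lowest fasted WT liver was the one left out, these interactions became more negative by construction, so the count of 5 lends no support. Over the 28 alternative fits the adjusted p reached 0.233 for Msmo1, 0.432 for Nsdhl and 0.253 for Cyp51. Dhcr7, Sc5d, Lss and Hsd17b7 had the smallest interactions, -0.73, -0.68, -0.41 and -0.22, and none of these 4 was called in any alternative fit.

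The order of the group means was the same for 7 of the 9 genes, namely Fdft1, Sqle, Lss, Cyp51, Msmo1, Nsdhl and Dhcr7. It ran, low to high, from fasted Mcl1KO through fasted WT and fed WT to fed Mcl1KO. Neighbours at the top of this order, the 2 fed groups, did not differ beyond their spread for any gene. Fasted WT and fed WT differed by the test for each of the 7 genes, while at the lower end fasted Mcl1KO and fasted WT were not separated for Lss, Nsdhl or Dhcr7. For Sc5d fed WT was highest, and for Hsd17b7 fed WT was lowest, with no called difference between any of its groups.

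The genes also varied together among livers of one group. Each liver's deviation from its group mean in 1 gene was set against the mean deviation of the other 8 genes, over 20 arrays that share their normalisation. Pearson's r was 0.89 for Sqle and for Msmo1, 0.87 for Nsdhl, 0.81 for Fdft1, 0.78 for Cyp51, 0.63 for Hsd17b7, 0.62 for Lss, 0.56 for Sc5d and 0.55 for Dhcr7. Part of this likeness rested on fasted WT replicate 4 and fed WT replicate 2. Without fasted WT replicate 4, r was 0.26 for Hsd17b7 and 0.53 to 0.82 for the other 8 genes. Without both livers it was -0.011 for Hsd17b7, 0.22 for Lss, 0.35 for Cyp51 and 0.55 to 0.80 for the other 6. The mean deviation over the 9 genes was 0.44 in fasted Mcl1KO replicate 3, -0.91 in fasted WT replicate 4, -0.59 in fed WT replicate 2 and 0.43 in fed WT replicate 3, which was the highest of its group for 8 genes.

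Among the livers measured, fed Mcl1KO varied less in these enzymes than fed WT. The SD over 5 livers was smaller in fed Mcl1KO than in fed WT for 9 of 9 genes, where 48.0% of all probe sets had the smaller SD in fed Mcl1KO. Because the genes varied together among livers, the 9 are not independent, and the difference in spread was not tested. The widest mean deviations among fed WT livers were those of replicate 2 (-0.59) and replicate 3 (0.43). The median SD of the 9 genes was 0.12 in fed Mcl1KO livers and 0.37 in fed WT livers, against medians over all probe sets of 0.19 in both. In fasted livers the median SD of the genes was 0.41 in Mcl1KO and 0.65 in WT. Not every gene varied more in fasted livers. The SD of Lss was 0.09 in fasted Mcl1KO and 0.14 in fed Mcl1KO livers. The model assumes 1 spread for all groups, so standard errors can be too small for comparisons with the more variable groups.

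**Figure D3:**
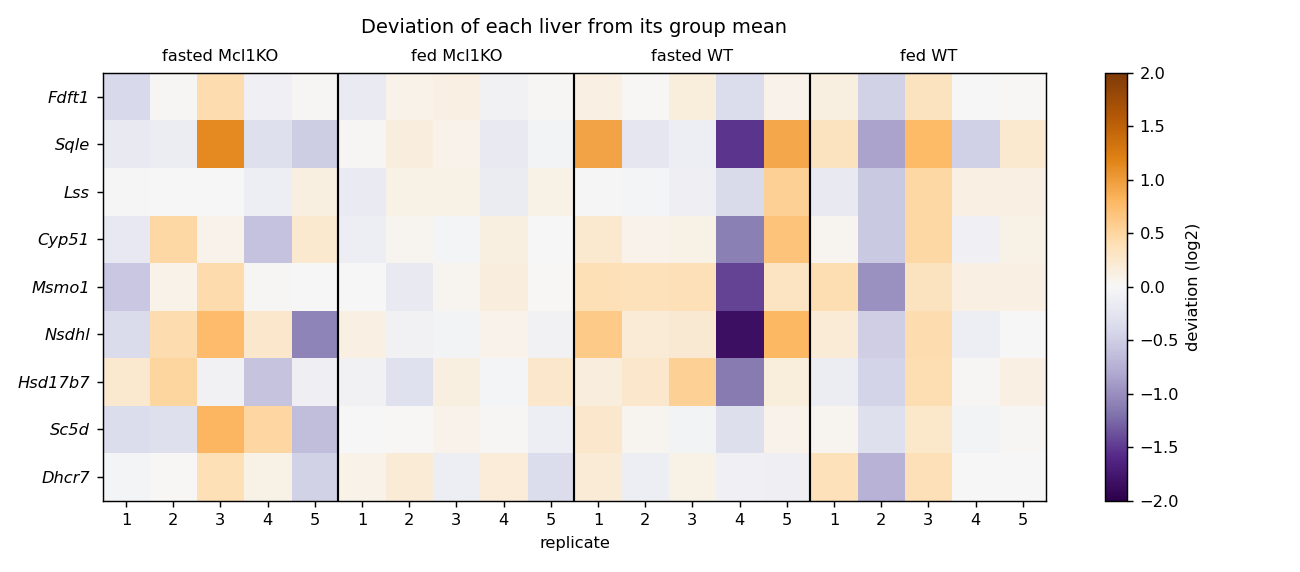
Deviation of each liver (columns, by group and replicate) from its group mean in log2 signal (colour) for the 9 enzymes (rows). Fasted WT replicate 4 and fed WT replicate 2 are low in nearly every row, with mean deviations of -0.91 and -0.59, and the fed Mcl1KO columns are paler than the fed WT ones.

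The mevalonate arm, which supplies farnesyl diphosphate to Fdft1, moved alongside. Of its 8 listed genes 6 were measured, and all 6 fell in fasted Mcl1KO livers (median log2 -2.11), while 4 fell in fasted WT livers (median log2 -1.12), against 6.25% and 3.68% of all probe sets called lower. Idi1, the isomerase of isopentenyl diphosphate, fell 10.3-fold in Mcl1KO (log2 -3.37, SE 0.30, adjusted p = 2.42e-08) and 3.34-fold in WT (log2 -1.74, SE 0.30, adjusted p = 0.000392). Fdps, the farnesyl diphosphate synthase, fell 7.49-fold in Mcl1KO (adjusted p = 3.68e-08) and 3.39-fold in WT (adjusted p = 9.20e-05). Hmgcs1, which makes the precursor of mevalonate, fell 6.34-fold in Mcl1KO (adjusted p = 6.20e-07) and 2.23-fold in WT (adjusted p = 0.0145, or 0.0502 without fed WT replicate 3). In fasted livers Idi1 and Fdps were lower in Mcl1KO than in WT (log2 -1.36 and -0.99, adjusted p = 0.00947 and 0.0296), and the call of Fdps was lost in 9 of 29 alternative fits (adjusted p up to 0.0807). None of the 6 had a called interaction with all livers in place (median -0.93). The interaction of Idi1 (log2 -1.63, adjusted p = 0.0980) was called without fasted WT replicate 4 (log2 -1.92, adjusted p = 0.0287) or fasted Mcl1KO replicate 3 (log2 -1.74, adjusted p = 0.0404). The same held for Hmgcs1 (log2 -1.51, adjusted p = 0.124), without the first liver (log2 -1.79, adjusted p = 0.0394) or the second (log2 -1.71, adjusted p = 0.0297). For both genes the first was the lowest and the second the highest of its group, so leaving either out lowers the interaction by construction. Over the 28 alternative fits the adjusted p reached 0.17 for Idi1 and 0.218 for Hmgcs1.

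Genes of other proteins of the sterol ring steps had smaller median differences with fasting. These were -0.47 in Mcl1KO and -0.45 in WT, beside -1.80 and -1.06 for the 9 enzymes. Of the 9 enzymes only Hsd17b7 changed less than each of the other genes measured. Of 5 listed, Erg28, Ebp and Lbr were measured, and the others were not analysed here. Erg28, a scaffold of the demethylation enzymes, fell 2.07-fold in Mcl1KO (log2 -1.05, adjusted p = 0.000264) and had a log2 difference of -0.52 in WT (adjusted p = 0.112). It was also lower in fasted Mcl1KO than in fasted WT livers (log2 -0.65, adjusted p = 0.0418), but that call was lost in 12 of 29 alternative fits (adjusted p up to 0.120). Ebp, the sterol isomerase that acts before Sc5d, was called in Mcl1KO close to the threshold (log2 -0.39, adjusted p = 0.0474) and lost in 19 of 29 alternative fits (adjusted p up to 0.157), with a difference of -0.39 in WT (adjusted p = 0.0773). Lbr, a sterol reductase that is also the lamin B receptor, had differences of -0.47 in Mcl1KO and -0.45 in WT, neither called (adjusted p = 0.0825 and 0.150).

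Genes of sterol sensing and uptake went both ways. Of 9 listed 6 were measured, with 3 lower and 1 higher in fasted Mcl1KO livers, and 2 lower and 1 higher in fasted WT livers. Of all probe sets 14.4% were called with fasting in Mcl1KO and 6.79% in WT. Between fasted livers 3 of the 6 were lower and 1 higher in Mcl1KO, against 4.99% of all probe sets called. Insig1, a target of the sterol pathway that restrains it, fell 6.82-fold in Mcl1KO (adjusted p = 1.46e-08) and 3.01-fold in WT (adjusted p = 8.02e-05). Insig1 was also lower in fasted Mcl1KO than in fasted WT livers (log2 -1.01, adjusted p = 0.015), a call kept in all 29 alternative fits. Insig2, its relative, which insulin is known to repress in liver, rose 6.35-fold in Mcl1KO (log2 2.67, SE 0.24, adjusted p = 3.28e-08) and 4.84-fold in WT (log2 2.28, SE 0.24, adjusted p = 7.15e-07). In fasted livers Insig2 was higher in Mcl1KO, with log2 signals of 9.01, 8.70, 7.87, 8.72 and 9.18, than in WT, with 7.86, 7.85, 8.07, 7.13 and 7.79 (log2 0.96, SE 0.24, adjusted p = 0.0215). That call was lost in 5 of 29 alternative fits, among them those without fasted WT replicate 4 (log2 0.81, adjusted p = 0.0672) or fasted Mcl1KO replicate 1, 2 or 5. Fasted Mcl1KO replicate 3, the highest of its group for 6 of the sterol enzymes, was the lowest there for Insig2. Stard4, a carrier of cholesterol between membranes, fell 9.81-fold in Mcl1KO (adjusted p = 3.28e-08) and 5.06-fold in WT (adjusted p = 9.94e-06). Stard4 was lower in fasted Mcl1KO than in fasted WT livers (log2 -1.10, adjusted p = 0.031), a call lost in 8 of 29 alternative fits.

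Srebf2, which encodes the pathway's transcription factor, fell in fasted Mcl1KO livers. It read 6.86, 6.89, 7.23, 7.14 and 6.82 in fasted Mcl1KO livers, against 7.79, 7.88, 7.81, 7.67 and 7.82 in fed Mcl1KO livers, without overlap (log2 -0.81, SE 0.15, adjusted p = 0.000555). In WT it read 7.87, 7.53, 7.67, 7.10 and 7.88 in fasted livers, against 7.62, 6.82, 7.63, 7.40 and 7.59 in fed livers (log2 0.20, SE 0.15, adjusted p = 0.584). The same 2 WT livers that were low in the sterol enzymes were the lowest here. The interaction was -1.01 (SE 0.22) and missed the threshold (adjusted p = 0.0598), but it was called in 9 of 28 alternative fits, such as without fasted WT replicate 4 (adjusted p = 0.0193) or fasted Mcl1KO replicate 3 (adjusted p = 0.0159). Those livers were the lowest and the highest of their groups, so leaving either out lowers the interaction by construction. The adjusted p of the interaction reached 0.122 over the alternatives. Fasted Mcl1KO was lower than fasted WT (log2 -0.62, adjusted p = 0.0203), a call lost in 6 of 29 alternative fits (adjusted p up to 0.0569).

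**Figure D4:**
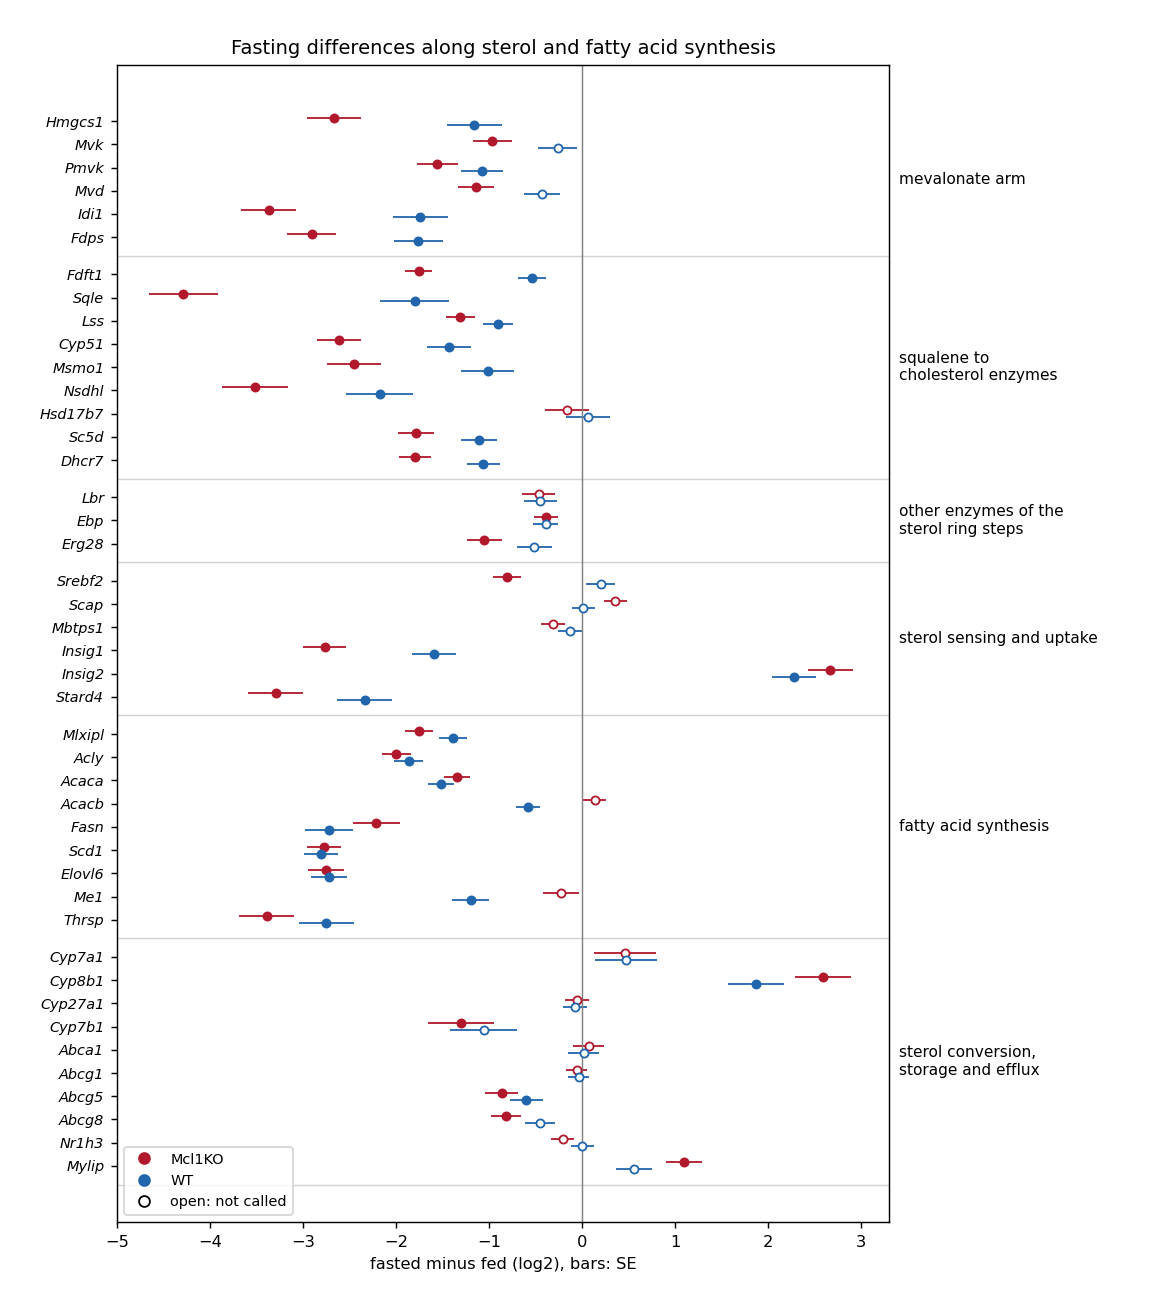
Difference between fasted and fed livers in log2 signal (horizontal axis, bars give the SE, n = 5 livers in each group) for the genes measured in each pathway list (rows), with Mcl1KO drawn above WT and open symbols where the gene was not called. In the rows of the sterol enzymes Mcl1KO points lie left of the WT points, from -0.16 for Hsd17b7 to -4.29 for Sqle.

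Fatty acid synthesis is the other lipid pathway known to be lowered by fasting. Of 9 genes measured 7 fell in fasted Mcl1KO livers (median log2 -2.0) and 9 in fasted WT livers (median log2 -1.87). Of all probe sets 6.25% were called lower in Mcl1KO and 3.68% in WT. Scd1, the stearate desaturase, had differences of -2.78 in Mcl1KO and -2.80 in WT, and the fatty acid synthase Fasn -2.21 in Mcl1KO and -2.72 in WT, all called. Thrsp had -3.39 in Mcl1KO and -2.75 in WT, and Elovl6 had -2.76 in Mcl1KO and -2.72 in WT, also all called. Me1, the malic enzyme, had -0.23 in Mcl1KO (adjusted p = 0.565) and -1.20 in WT (adjusted p = 0.000257), and Acacb, an acetyl-CoA carboxylase, had 0.13 in Mcl1KO (adjusted p = 0.620) and -0.58 in WT (adjusted p = 0.00459). Between fasted livers 1 of the 9, Acly, was called, lower in Mcl1KO (log2 -0.58, adjusted p = 0.0327). That call was lost in 10 of 29 alternative fits. Interactions of the 9 genes ran from -0.64 for Thrsp to 0.97 for Me1, with 4 below 0 and 5 above. None was called (adjusted p = 0.143 for Me1 and 0.0941 for Acacb). Their median was 0.02, beside -1.18 for the sterol enzymes; the difference between the lists was not tested.

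The genes most like the enzymes were ranked among 19496 others by Pearson's r with the mean of the 9 centred log2 signals. Over all 20 arrays these were Fdps (0.991), Idi1 (0.983), Hmgcs1 (0.981), Insig1 (0.962) and Stard4 (0.958). When only deviations from the group means were used, they were Fdps (0.943), Hmgcs1 (0.919), Srebf2 (0.896), Idi1 (0.858) and Abcd3 (0.843), the last a peroxisomal fatty acid transporter. The points share arrays and normalisation, and the ranking is a description that was not repeated without the livers that stood apart.

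Kupffer cell markers also moved with fasting, with 2 of 9 called lower in Mcl1KO and 4 of 9 in WT. Of all probe sets 6.25% were called lower in Mcl1KO and 3.68% in WT. Called in either direction were 14.4% in Mcl1KO and 6.79% in WT, the shares to set beside all marker counts here. Their array means were 4.99 to 5.65 in fasted Mcl1KO livers and 5.42 to 5.68 in fed Mcl1KO livers, against 4.54 to 4.86 in fasted WT livers and 5.26 to 5.73 in fed WT livers. Of 12 hepatocyte markers, 4 were called higher and 2 lower with fasting in Mcl1KO, and 3 higher in WT. Their array means were 11.32 to 11.41 in fasted Mcl1KO livers and 11.21 to 11.29 in fed Mcl1KO livers, against 11.37 to 11.42 in fasted WT livers and 11.18 to 11.25 in fed WT livers, without overlap between feeding states. The markers went both ways, with 3 of the 12 below 0 in Mcl1KO and 5 in WT. Their median difference was 0.09 in Mcl1KO and 0.08 in WT, and the highest was that of Tat (0.65 and 0.69). Of 8 stellate cell markers 2 were called higher and 2 lower in Mcl1KO and 1 lower in WT. Of 7 sinusoidal endothelial markers 2 were called higher in Mcl1KO, and 1 higher and 1 lower in WT. Their median difference was 0.22 in Mcl1KO, with 5 above 0 and 2 below, and -0.34 in WT, with 2 above 0 and 5 below. Lyve1 was the highest of them, at 2.24 in Mcl1KO and 1.79 in WT. The interactions of these 7 markers were all above 0, none called (median 0.56). Those of the 9 Kupffer cell markers were also all above 0 (median 0.35). Of these 1, Vsig4, was called, where 0.135% of all probe sets were called. Interactions of the stellate cell markers had 4 below 0 and 4 above, and those of the hepatocyte markers 6 and 6, none called. The part of any of these cells in the sterol results was not tested.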

How the data were processed

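Liver RNA of 20 mice, 5 in each of 4 groups, was isolated with Trizol and labelled with the GeneChip WT PLUS kit, per the labels' protocols. The authors deposited 1 table of log2 signals for 22206 probe sets, made by RMA and Partek 7.0 per the submitters' processing notes. RMA corrects background, equalises the distributions of arrays and summarises probes, and a change common to most transcripts would be hidden and folds of dim probe sets are compressed. The log base is not stated; values of 1.34 to 12.56 were taken as log2. The number of arrays limits the precision; the median SE was 0.13 for differences between 2 groups and 0.19 for the interaction.

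From these values 1 mean for each group was estimated from all 20 arrays with limma 3.58.1 (eBayes, prior df 6.95) in R 4.3.3, and 5 contrasts were tested, with Benjamini-Hochberg adjustment over all probe sets and calls at an adjusted p under 0.05. Positive values are higher in fasted or in Mcl1KO livers. Symbols come from the platform annotation: 19572 probe sets had 1 symbol, 0 several and 2634 none, and the probe set with the highest mean stood for a gene. The 9 enzymes, the gene lists, the tests and the alternatives were chosen with earlier results of these data known. All 9 are named, with the 5 most alike genes by each ranking. From each list and comparison a rule took up to 3 called genes in each direction. Where a list had none, its 2 largest differences were taken. Not every gene so picked is printed, and Fasn and Mcl1 are printed outside this rule. Pmvk, Mvk, Mvd and further genes appear only in plots. The steps were tested on simulated data. Promoter windows are RefSeq's (GRCm38.p6), searched on both strands. Plots were made with matplotlib 3.10.9 (Python 3.11.15). Alternatives were leaving out each liver, the replicate number as a block, quantile normalisation, median centring, trended robust moderation, weights on arrays, leaving out dim probe sets, fits on the compared groups, and 2 sets of left-out livers added after seeing the data, as was the likeness among the enzymes without them.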

Additional observations from a re-analysis of the deposited data

Results flagged for a closer look

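A set of 34 genes, fewer than the report names, was screened for a liver outside the range set by the others of its group (Dixon's test at 95%, 136 groups of 5). 9 values stood apart, and chance alone marks about 1 group in 20. Of the sterol enzymes, replicate 3 of fasted Mcl1KO read 4.14 for Sqle, where the other fasted Mcl1KO livers read 2.51 to 2.89. In fasted WT replicate 4, Msmo1 read 4.24 against 6.01 to 6.08 in the others, Nsdhl 5.0 against 7.03 to 7.63, and Hsd17b7 6.33 against 7.62 to 8.02. In fed WT replicate 2, Msmo1 read 5.73 against 6.82 to 7.12. Hmgcs1, of the mevalonate arm, read 7.20 in fasted WT replicate 4 against 8.41 to 8.85. Abcg8, a transporter of sterol efflux, read 6.77 in fasted Mcl1KO replicate 2 against 7.44 to 7.69. Abcd3 read 9.37 in fasted Mcl1KO replicate 3 against 8.84 to 8.98, and 8.98 in fed WT replicate 2 against 9.22 to 9.30.

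Fdft1 is listed here because its response to fasting differed between the genotypes by the interaction test, with a log2 value of -1.22 (limma, adjusted p = 0.0163, range over the alternatives 0.000603 to 0.0448). All 5 fasted Mcl1KO livers lay below all 5 fasted WT livers.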

How the results depend on the processing

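The 8 enzymes called lower for fasting in Mcl1KO stayed at 8 in every alternative, with 2689 to 3418 probe sets called in all when 1 liver was left out (3208 with all livers). Leaving out 1 liver gave 6 to 8 enzymes for fasting in WT (1124 to 1580 probe sets), 3 to 7 for Mcl1KO against WT in fasted livers (497 to 1707), 0 in fed livers (7 to 16) and 1 to 5 for the interaction (9 to 331); none was called higher, with 0 in each comparison. Fits on only the compared groups called 2 enzymes, Fdft1 and Sqle, and 399 probe sets between fasted genotypes; for fasting in WT that fit and trended robust moderation called 7 enzymes each, Msmo1 being lost. Without fed WT replicate 2 and fasted WT replicate 4, 668 probe sets were called between fasted genotypes, 14 between fed genotypes, and 4 enzymes had a called interaction. Without fasted Mcl1KO replicate 3 as well, 15 were called between fed genotypes, 185 in the interaction, and 5 enzymes there. These livers were picked because they stood apart in the same enzymes, while fed WT replicate 3, the highest of its group for 8 genes, was kept. Leaving out a low fasted WT liver or a high fasted Mcl1KO liver, alone or together, widens the fasted genotype difference by construction. It also makes the interaction more negative. The counts of these 2 fits therefore lend no support to the others. Between fed genotypes trended robust moderation called 15 and array weights 26. In the interaction array weights called 55 and the filter on dim probe sets 52, with 2 enzymes each, Fdft1 and Sqle.

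With the replicate number as a block, 2 enzymes had a called interaction, Sqle being added (adjusted p = 0.0392), and no other call of an enzyme changed. The numbers do not pair the livers: of 30 same-numbered pairs 1 correlated above 0.1 (r from -0.190 to 0.166).

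Differences near 0 changed sign, none of them called. With 1 liver left out, Hsd17b7 ran from -0.078 to 0.34 for fasting in WT, below 0 without fed WT replicate 2, fasted WT replicate 2 or fasted WT replicate 3, and from -0.067 to 0.36 between fasted genotypes, below 0 without fasted WT replicate 4. Likewise Cyp51 between fed genotypes ran from -0.046 to 0.21, below 0 without fed WT replicate 2, and Mcl1 for fasting in Mcl1KO from -0.037 to 0.12. With 2 and with 3 livers left out, Hsd17b7 between fasted genotypes was -0.067 and -0.049, and Cyp51 between fed genotypes was -0.046 both times. The causes were not tested. No other probe set measured an enzyme, so that alternative gave no value.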

Other observations

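Of 13 listed genes that convert, store or export sterols 10 were measured. In fasted Mcl1KO livers 2 rose and 3 fell, where 14.4% of all probe sets were called, and in fasted WT livers 1 rose and 1 fell, where 6.79% were called. Cyp8b1, which sets the share of cholic acid in bile, rose 6.01-fold in Mcl1KO (log2 2.59, SE 0.30, limma adjusted p = 1.39e-06) and 3.64-fold in WT (log2 1.86, SE 0.30, adjusted p = 0.000222). Mylip, the ligase that marks the LDL receptor for destruction, rose 2.13-fold in Mcl1KO (adjusted p = 0.000222) and had a log2 difference of 0.56 in WT (adjusted p = 0.0866). Cyp7b1, an oxysterol hydroxylase, fell 2.46-fold in Mcl1KO (adjusted p = 0.0133, up to 0.0509 over the alternatives) and had a log2 difference of -1.06 in WT (adjusted p = 0.0798). The sterol export pair Abcg5 and Abcg8 fell 1.82-fold and 1.76-fold in Mcl1KO (adjusted p = 0.00118 and 0.000665), and Abcg5 fell 1.52-fold in WT (adjusted p = 0.0405), a call lost in 10 of 29 alternative fits (adjusted p up to 0.183). None of the 10 genes was called between the genotypes or in the interaction.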
